A study of Mus musculus with 24 samples.

Results

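The 7 genes described here encode the machinery by which a cell displays peptides on MHC class II molecules. They are H2-Aa, H2-Ab1 and H2-Eb1 (chains of the class II molecules), Cd74 (the invariant chain), H2-DMa and H2-DMb1 (the peptide editor) and Ciita (the transcriptional regulator of the others). They were taken by symbol from a table of 24421 genes, and all 7 passed the filter on low values in colon and in ileum. RNA was sequenced from intestinal epithelial cells of C57BL/6 mice aged 8 to 14 weeks, sorted as CD45-negative cells carrying a tomato reporter driven by Villin, a brush border protein. Colon and ileum came from the same 12 mice, giving 24 libraries. KO early mice were KO chimeras taken 2 weeks after chimerism (n = 4, mice 100, 117, 118 and 120). KO late mice were KO chimeras taken at 8 weeks (n = 3, mice 49, 50 and 57). WT irradiated mice were labelled as wild type and also as 8 weeks after chimerism (n = 2, mice 59 and 61). WT non-irradiated mice were not treated (n = 3, mice 72, 73 and 75). The labels say only KO, while the series title names gut macrophages lacking IL-10Rα and an IL-22-driven epithelial response. They do not say which cells lack a gene or who donated the cells of the chimeras.

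A class II molecule is a pair of an α and a β chain. The invariant chain binds newly made pairs, blocks the peptide groove and carries them to endosomes, where cathepsins degrade it and H2-DM exchanges its last fragment for other peptides. Ciita does not bind DNA itself. It docks on a complex of RFX, CREB and NF-Y proteins that sits on short boxes, called X and Y, in front of class II genes. B cells, dendritic cells and macrophages make class II constantly, while gut epithelium can make it too and raises it in response to interferon-gamma. C57BL/6 mice lack a working Eα chain, so H2-Eb1 is expected to have no partner of its own isotype. The Eα pseudogene H2-Ea-ps, looked up after the members' values were seen, had 0 to 13 normalised reads over the 24 libraries.

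The stretches that hold the X and Y boxes are shown for 3 members and for H2-Ob, a class II gene of the same locus that was hardly expressed here, because these boxes are where Ciita acts. Promoter sequence was taken from RefSeq (GRCm38.p6), which matched 4 of the 7 members (H2-Aa, H2-Eb1, H2-DMa and H2-DMb1) and 4 of 4 other genes of the locus. H2-Ab1, Cd74 and Ciita were not matched. Capitals mark the core of the X box, GCAAC or GTAAC, and the core of the Y box, ATTGG, the CCAAT box read on the other strand. Each line runs 5′ to 3′ along the strand of its gene.
H2-Aa: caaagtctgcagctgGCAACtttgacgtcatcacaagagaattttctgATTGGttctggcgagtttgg
H2-Eb1: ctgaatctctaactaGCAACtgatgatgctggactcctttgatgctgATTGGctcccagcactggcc
H2-DMb1: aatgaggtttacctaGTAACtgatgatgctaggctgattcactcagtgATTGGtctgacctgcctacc
H2-Ob: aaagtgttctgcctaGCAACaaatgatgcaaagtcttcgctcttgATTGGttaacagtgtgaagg
The H2-Aa stretch is chr17:34287852-34287919 on the minus strand, and the others are on the plus strand, at chr17:34305761-34305827 for H2-Eb1, chr17:34153082-34153149 for H2-DMb1 and chr17:34238803-34238867 for H2-Ob. All 4 lie upstream of the start of transcription, with the X core starting 81 bases before it in H2-Aa, 91 in H2-Eb1, 94 in H2-DMb1 and 87 in H2-Ob. Between the boxes there are 28 bases in H2-Aa, 27 in H2-Eb1, 28 in H2-DMb1 and 25 in H2-Ob. GCAAC followed by ATTGG after a gap of 10 to 30 bases, searched on both strands of the 250 bases upstream, was found in 0.861% of 32536 promoter windows (280 windows). With any base in the second place (GNAAC) the share was 3.02%, and ATTGG alone was in 33.8%. H2-Oa, H2-Ob and H2-Eb2 held the stricter arrangement, H2-DMb1 held only the relaxed one, and neither was found in H2-DMb2 or in the 2 windows of H2-DMa.

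Gene-assigned reads per library numbered 8.32 to 18.7 M, with a median of 13.2 M. The ribosomal RNA gene Rn45s took 0.064 to 29.4% of them, with the highest share in the ileum of KO early mouse 100. In WT non-irradiated colon it took 16.1% in mouse 72, 20.0% in mouse 73 and 0.105% in mouse 75. Its relation to the class II values was not tested. Every value below is a read number scaled by the size factor of its library (normalised reads), and group values are mean ± SD. A log2 fold change was taken after adding 1 to each value and is given with its SE. Epithelial markers were abundant, with Epcam at 12262 to 35668 and Vil1 at 10192 to 80532 normalised reads. Il10ra, the gene of the series title, was at 1.6 to 31.2 normalised reads, and as the labels do not say which cells are KO, it does not check them. Libraries also differed in the reads falling in 1462 olfactory and vomeronasal receptor genes, which averaged 943 ± 166 per M over the 3 KO late colons and 413 ± 253 over the 2 WT irradiated colons.

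Class II transcripts were present in the epithelium of all 24 libraries, and in colon the WT non-irradiated mice spread further than any other group. Per kb of exon, median levels in colon ran from 6340 normalised reads for Cd74 through 4490 for H2-Aa, 2062 for H2-Ab1, 965 for H2-Eb1 and 281 for H2-DMb1 to 82.2 for H2-DMa and 73.9 for Ciita. The order by median was the same in ileum, from 9410 per kb for Cd74 to 105 for Ciita. The level in the highest library divided by that in the lowest was 51.5 for H2-Aa in colon and 3.02 in ileum. For the regulator Ciita these ratios were 10.5 and 3.30, and for H2-DMa 5.55 and 3.48. Pooled over the 4 groups, the SD of log2 values within a group was 0.88 (Ciita) to 1.51 (H2-Aa) in colon, against a median of 0.45 over all 19145 genes tested, at the 93.9th to 99.7th percentile of those genes. In ileum it was 0.46 (H2-Aa) to 0.63 (Cd74), against a median of 0.43 over 19122 genes, at the 54.5th to 78.8th percentile. The spread in colon was widest in WT non-irradiated mice, where the SD was 1.31 (H2-DMa) to 2.83 (H2-Aa), against at most 0.87 for any member in the other 3 groups. For H2-Aa it was 0.66 in colon and 0.61 in ileum of KO early mice, and 0.66 and 0.50 in KO late mice.

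**Figure D1:**
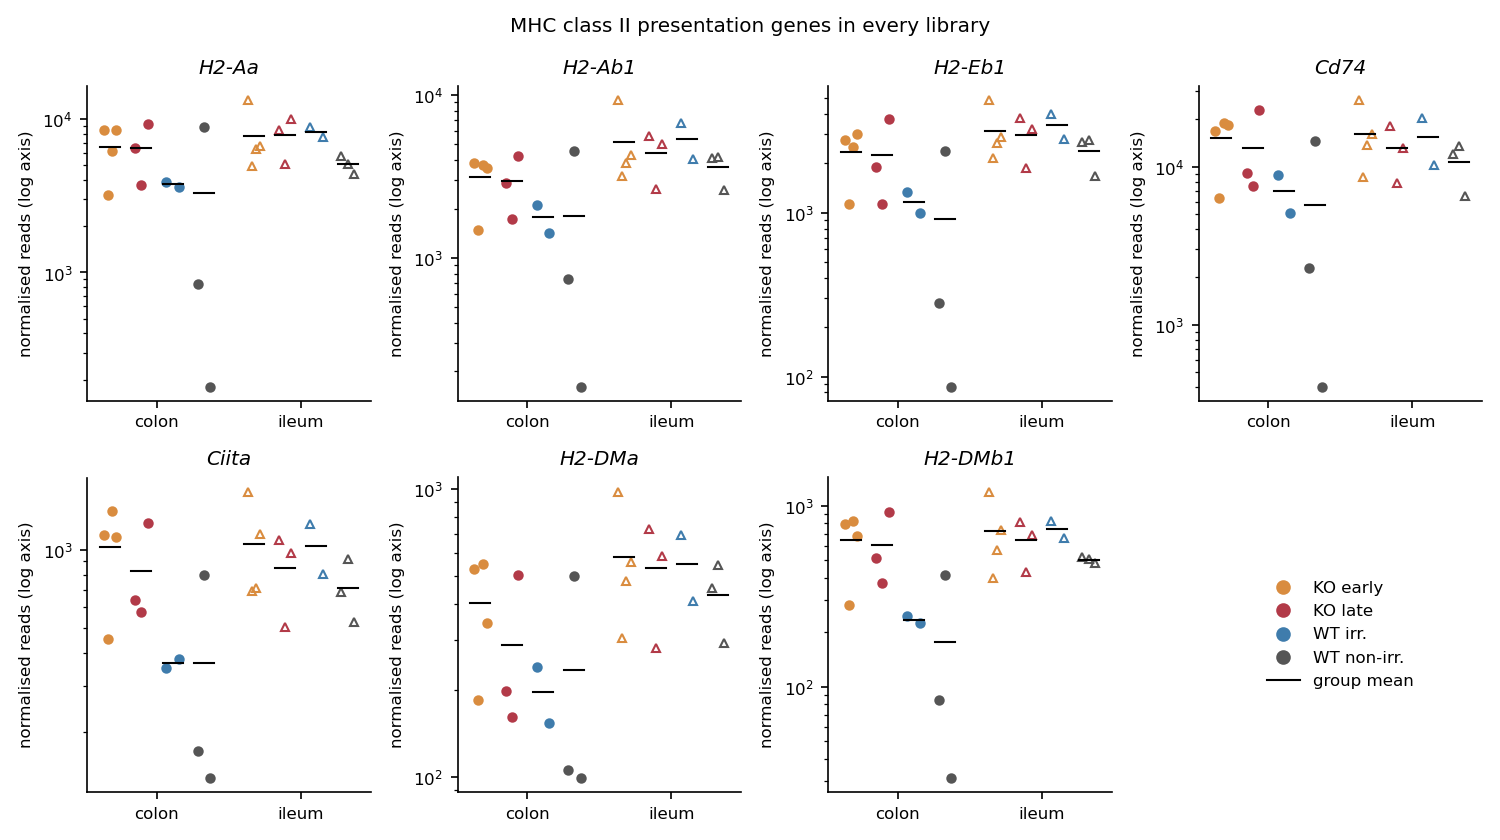
Normalised reads (log axis) of the 7 class II presentation genes in each of the 24 libraries, by tissue and group; filled circles are colon, open triangles ileum, and black lines group means. H2-Aa lay at 180 and 841 in 2 of the WT non-irradiated colons and at 8903 in the third, while ileum of the same mice held 4397 to 5719.

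H2-Aa encodes the α chain of I-A, the main class II molecule of this strain. In WT non-irradiated colon it stood at 841 in mouse 72, 8903 in mouse 73 and 180 in mouse 75, and in WT irradiated colon at 3912 and 3611. In KO early colon it was 8500, 3195, 6217 and 8479, and in KO late colon 6503, 3747 and 9269. Mouse 73 and the 2 irradiated mice had H2-Aa levels inside the KO range, and mice 72 and 75 lay below every other colon. In ileum H2-Aa was 8303 ± 849 in WT irradiated (n = 2), 5083 ± 662 in WT non-irradiated (n = 3), 7822 ± 3727 in KO early (n = 4) and 7879 ± 2501 in KO late mice (n = 3). The means of the other 3 groups differed by less than their SDs, while WT non-irradiated ileum, with its 3 mice at 4397 to 5719, stood lowest and below both irradiated mice.

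The β chains moved with it. H2-Ab1, the β chain of I-A, was at 737, 4541 and 162 in colon of WT non-irradiated mice 72, 73 and 75, and at 2120 and 1415 in the 2 WT irradiated mice. KO early colon held 1480 to 3822 and KO late colon 1727 to 4228, so that both KO groups overlapped both WT groups. H2-Eb1, the β chain of I-E, ranged from 86.8 in mouse 75 to 3712 in KO late mouse 57 in colon. Its ileal values were 1682 to 4848 over all 12 mice, with a mean of 2383 ± 609 (n = 3) in WT non-irradiated and 3410 ± 821 (n = 2) in WT irradiated mice.

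Cd74, the invariant chain, had the highest level of the 7. In colon it was 16901, 6365, 19050 and 18246 in KO early mice, 9075, 7593 and 22786 in KO late mice, 8879 and 5081 in WT irradiated mice, and 2282, 14576 and 404 in WT non-irradiated mice. The groups overlapped, and mouse 75 was again lowest. In ileum the 12 values lay between 6505 and 26340.

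H2-DM, the peptide editor, is a pair of H2-DMa and H2-DMb1. H2-DMb1 in colon was 793, 281, 816 and 675 in KO early mice and 512, 375 and 922 in KO late mice, against 245 and 224 in WT irradiated mice and 84.1, 415 and 31.3 in WT non-irradiated mice. All 7 KO colons lay above both irradiated WT colons, and 2 of the 7 lay below WT mouse 73. H2-DMa varied less in colon, from 98.8 in mouse 75 to 548 in KO early mouse 118. Its colon groups overlapped, with means of 401 ± 171 for the 4 KO early, 288 ± 188 for the 3 KO late and 197 ± 61.6 for the 2 WT irradiated mice. H2-DMa overlaps Brd2, and H2-DMb1 has a near-identical neighbour, H2-DMb2 (0 to 21.7 normalised reads), so both are uncertain where counting could not assign reads to 1 gene.

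Ciita, the regulator, stood in colon at 1136, 454, 1400 and 1112 in KO early mice and at 640, 575 and 1268 in KO late mice. WT irradiated colon held 351 and 382, and WT non-irradiated colon 170, 802 and 133. Every KO colon was above both irradiated WT colons, while WT mouse 73 exceeded 3 of the 7 KO colons. In ileum Ciita was 503 to 1663 with all groups overlapping. Ciita overlaps Dexi and a long non-coding RNA, and the sources used here do not say whether counting used strand.

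The colon of wild-type mice held less class II RNA than their ileum. With both WT groups together (5 mice), 5 of 7 members were lower in colon by limma at an adjusted p under 0.05, where 21.6% of 19588 genes were called in either direction. All 7 had negative log2 fold changes (median -1.67, against 0.0045 over all genes tested), and 7 of 7 had an unadjusted p under 0.05, as had 5998 of all genes tested. H2-DMb1 fell by 1.95 ± 0.47 (adjusted p = 0.00368, limma), and H2-Eb1 by 2.06 ± 0.57 (adjusted p = 0.00952, limma), which is a level in colon of 0.239 times that in ileum. Ciita fell by 1.43 ± 0.42 (adjusted p = 0.0152, limma), H2-Ab1 by 1.86 ± 0.57 (adjusted p = 0.0208) and H2-DMa by 1.36 ± 0.45 (adjusted p = 0.0315). H2-Aa, at -1.67 ± 0.63 (adjusted p = 0.0626, limma), and Cd74, at -1.60 ± 0.63 (adjusted p = 0.0757), missed the threshold. With the mouse as a block, which uses that both tissues came from the same animal, all 7 were lower in colon (27.3% of genes called), with adjusted p from 0.000131 for H2-DMb1 to 0.00825 for H2-Aa. edgeR called 2 of the 7, where it called 22.2% of all genes, and DESeq2 4, where it called 24.7%. Leaving out 1 mouse at a time, limma called 1 member without mouse 59 (13.2% of genes called), 2 without 61 (15.1%), 2 without 72 (18.3%), 4 without 75 (20.6%) and 7 without 73 (18.9%). The member counts of edgeR and of limma without mouse 59 were near the share called over all genes.

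Within mice, the colon was lower than the ileum for every one of the 7 members in 4 of 5 wild-type mice. The median over the 7 members of log2 colon over ileum was -1.58 and -1.41 in irradiated mice 59 and 61, -2.47 in mouse 72 and -4.01 in mouse 75. Mouse 73 stood apart with a median of -0.13 and H2-Aa at 0.79. In the 7 KO mice these medians ran from -0.97 in mouse 49 to 0.19 in mice 118 and 57. H2-Ab1 was lower in colon than in ileum in 7 of 7 KO mice, H2-Aa and H2-DMa in 6, H2-Eb1 and H2-DMb1 in 5, and Cd74 and Ciita in 4. In KO early mice 0 of 7 members were called between colon and ileum (14.2% of genes called), with log2 fold changes of -0.67 to -0.056, and in KO late mice 0 of 7 (28.0% of genes called), at -0.96 to -0.061. In both KO groups limma gave 0 of 7 at an unadjusted p under 0.05, where 4545 (KO early) and 8916 (KO late) of 19588 genes were under it. Neither edgeR nor DESeq2 called a member. Over all genes edgeR called 1717 higher and 1238 lower in KO early colon, and 2572 and 2900 in KO late colon. DESeq2 called 1766 and 1471, and 2936 and 3847. The 95% interval for H2-Aa reached from -1.66 to 1.18 in KO early and from -1.96 to 1.33 in KO late mice, so colonic levels well below the ileal ones were still within it. With the mouse as a block, H2-DMa was lower in KO late colon (-0.96 ± 0.32, adjusted p = 0.0208, limma), 1 of 7 members where 49.2% of all genes were called.

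**Figure D2:**
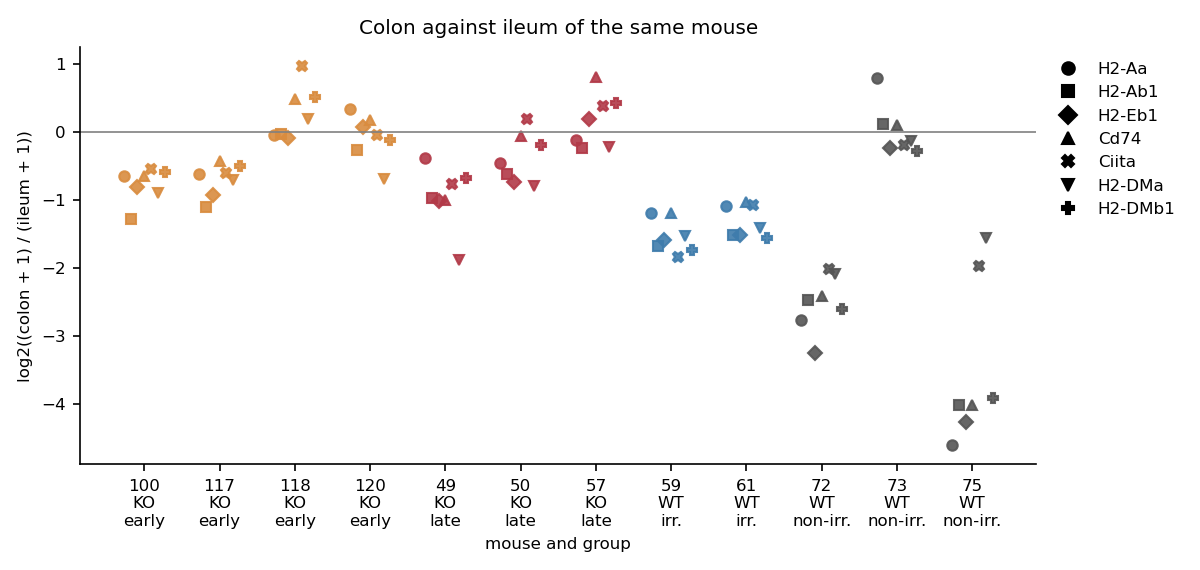
log2 of the colon value over the ileum value of the same mouse (1 added to each) for the 7 members, with 1 column per mouse, colour by group and marker by gene. Mice 72 and 75 sit lowest (medians -2.47 and -4.01), the irradiated WT mice at -1.58 and -1.41, and mouse 73 and the KO mice nearer to 0.

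Irradiation was examined by setting WT irradiated against WT non-irradiated mice. In colon all 7 members had positive log2 fold changes, from 0.14 (H2-DMa) to 1.76 (H2-Aa) with a median of 1.17, yet 0 of 7 were called, as was 0% of all genes tested. H2-Aa changed by 1.76 ± 1.07 (95% interval -0.53 to 4.06) and Ciita by 0.48 ± 0.64 (-0.91 to 1.86). limma gave 0 of 7 members and 66 of 19145 genes an unadjusted p under 0.05, and edgeR and DESeq2 called 0 genes. The size of this difference rested on mouse 75: without it the log2 fold change of H2-Ab1 was -0.079 and that of Ciita -0.012, and without mouse 73 that of H2-Aa was 3.27 and that of H2-Ab1 2.32. H2-Aa was at 0.46 without mouse 75, and at 0.17 by edgeR and 0.23 by DESeq2. In the colon of mouse 75 the summed epithelial markers were also lower (94031 normalised reads, against 155761 in mouse 72 and 173016 in mouse 73), the receptor gene reads higher (682 per M, against 232 and 233) and the B cell list higher (1142, against 492 and 508). Their part in its low class II values was not tested. In bulk samples such as these, fewer cells of a type and less RNA per cell cannot be told apart.

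In ileum the irradiated mice stood above the non-irradiated ones by 0.35 (H2-DMa) to 0.71 (H2-Aa) on the log2 scale, with a median of 0.54 against 0.023 over all genes tested. H2-Aa was 8904 and 7703 in irradiated mice, with no overlap with the 4397 to 5719 of non-irradiated mice, at 0.71 ± 0.38 (95% interval -0.10 to 1.52). H2-DMb1 (818 and 659 against 482 to 517) and H2-Eb1 did not overlap either, so that 3 of 7 members lay entirely higher in irradiated ileum, as did 5.67% of genes tested. By limma 0 of 7 members and 0% of 19122 genes were called, with 0 members and 187 genes at an unadjusted p under 0.05. edgeR called 0 genes, and DESeq2 called 1 higher and 1 lower, neither a member. The difference between tissues in the effect of irradiation, tested as an interaction, was called for 0 of 7 members and for 0% of genes. It ranged from -0.21 (H2-DMa) to 1.05 (H2-Aa), with 0 members and 172 genes at an unadjusted p under 0.05 by limma and 0 genes called by edgeR or DESeq2.

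KO mice were compared with WT irradiated mice, so both KO comparisons share the same 2 control mice. The controls were labelled as 8 weeks after chimerism and KO early mice as 2 weeks. In the KO early comparisons of either tissue, KO and time therefore cannot be told apart. In colon all 7 members were higher on average in KO early mice, by 0.71 (H2-Aa) to 1.37 (Ciita) with a median of 0.94, against 0.044 over all genes tested. None passed the test: 0 of 7 were called, where 0.204% of genes were. limma gave 1 of 7 members and 1225 of 19145 genes an unadjusted p under 0.05, edgeR 1 and 1224, and DESeq2 2 and 1635. edgeR and DESeq2 called no member, where edgeR called 21 genes higher and 11 lower and DESeq2 160 and 76. Ciita changed most, by 1.37 ± 0.61 (95% interval 0.056 to 2.68, adjusted p = 0.760, limma), which is 2.58-fold, and H2-DMb1 by 1.33 ± 0.74 (-0.25 to 2.92). These were the 2 members whose KO early colons all lay above both controls, which held for 7.90% of genes tested. Cd74 changed by 1.05 ± 0.98, a 2.07-fold difference, and H2-Aa by 0.71 ± 1.01 (-1.47 to 2.89).

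In KO late colon the log2 fold changes were 0.40 (H2-DMa) to 1.26 (H2-DMb1), with a median of 0.79 against -0.012 over all genes. Again 0 of 7 were called by limma (1.03% of genes called), edgeR (76 genes higher, 87 lower) or DESeq2 (342 and 456). By these 3 tools 0 members had an unadjusted p under 0.05, where 3150, 3091 and 3553 of 19145 genes had one. Ciita changed by 1.08 ± 0.64 (-0.30 to 2.47), and it and H2-DMb1 lay above both controls in all 3 mice, as did 16.7% of genes tested. Much of the rest came from mouse 57: without it the median was 0.36 and H2-DMa was at -0.10. KO late against KO early colon gave -0.54 to -0.014. Of the 7, 0 were called by limma (0.00522% of genes called), edgeR (0 genes) or DESeq2 (86 genes higher, 120 lower). By these tools 0 members had an unadjusted p under 0.05, where 2065, 2096 and 2644 of all genes had one. The interval for H2-Aa there was -1.93 to 1.91, so the 2 stages were not shown to have like levels. With the log2 share of receptor gene reads as a covariate these differences turned to 0.16 to 1.30 (median 1.05), positive for all 7. By limma 0 members were then called and 0 had an unadjusted p under 0.05. Of all genes 7 were called higher and 2 lower, and 1388 had an unadjusted p under 0.05.

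These averages depended on what they were set against. With WT non-irradiated mice as controls the median was 2.47 in KO early and 2.29 in KO late colon. By limma 6 and 5 of the 7 had an unadjusted p under 0.05, as had 2182 and 6027 of 19145 genes. After adjustment 0 members were called, where 58 genes were called higher and 49 lower for KO early, and 196 and 280 for KO late mice. Receptor gene reads were also higher in KO colon than in WT irradiated colon (554 ± 110 per M in the 4 KO early colons and 943 ± 166 in the 3 KO late ones, against 413 ± 253). With their log2 share as a covariate the median rose to 1.79 in KO early and 2.85 in KO late colon. Then 6 and 7 members had an unadjusted p under 0.05, as had 2787 and 2257 of 19145 genes. Again 0 members were called, where 82 genes were called higher and 18 lower for KO early, and 71 and 11 for KO late mice.

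**Figure D3:**
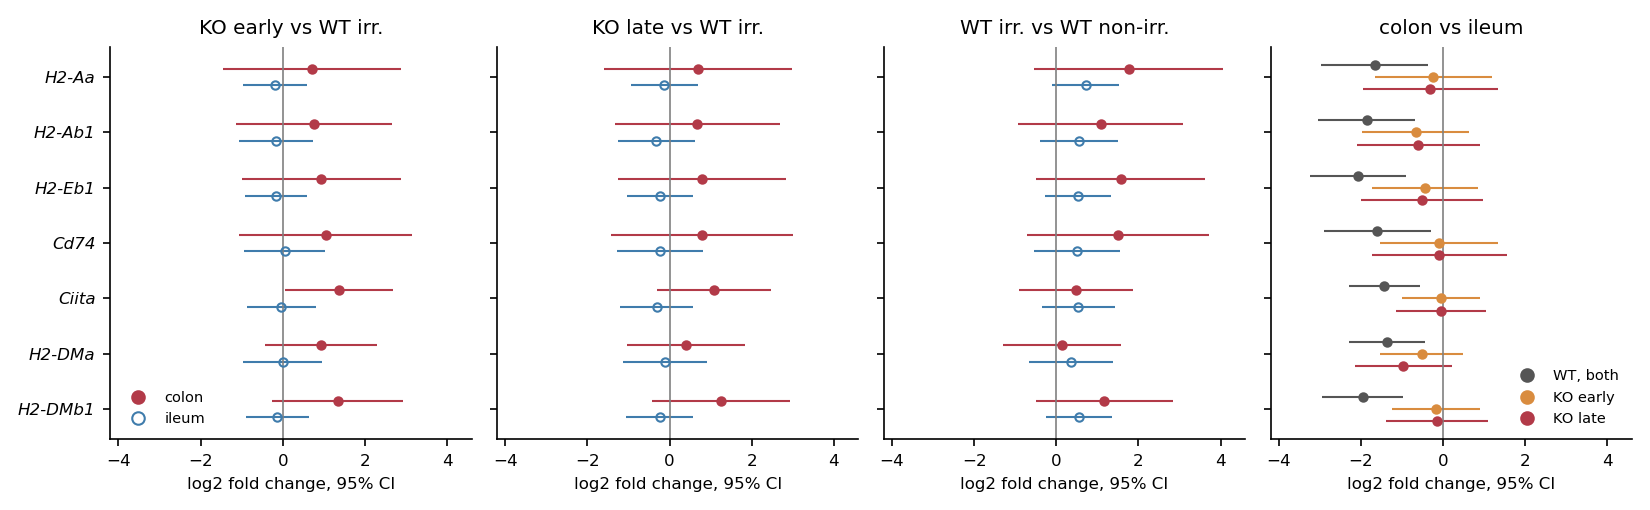
log2 fold changes (points) with 95% intervals (lines) from limma for each member; the first 3 panels show group comparisons in colon (red, filled) and ileum (blue, open), and the last panel shows colon against ileum in WT (grey), KO early (orange) and KO late mice (red). Intervals are wide in colon and narrower in ileum, and the WT intervals of the last panel lie below 0 for all 7 members.

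In ileum no member was called between KO and WT irradiated mice, and the direction depended on the receptor covariate. Without it, KO early ileum differed by -0.19 (H2-Aa) to 0.044 (Cd74) and KO late ileum by -0.32 (H2-Ab1) to -0.11 (H2-DMa). KO late against KO early ileum gave -0.28 to 0.061. In each of the 3 comparisons 0 of 7 members and 0% of genes were called by limma, 0 members had an unadjusted p under 0.05 by limma, edgeR or DESeq2, and no member was called by edgeR or DESeq2. Of all 19122 genes, limma gave 4752, 157 and 4697 an unadjusted p under 0.05, edgeR called 0, and DESeq2 called 155 higher and 36 lower, then 0, then 775 higher and 567 lower. The 95% interval for H2-Aa was -0.96 to 0.58 in KO early and -0.94 to 0.68 in KO late ileum, without a covariate. Receptor gene reads were 545 ± 201 per M in the 4 KO early ilea and 380 ± 85.6 in the 3 KO late ones, against 290 ± 173 in the 2 WT irradiated ones. With their log2 share as a covariate, KO early ileum was at 0.35 (H2-Aa) to 0.91 (Cd74) for the 7 members, with a median of 0.63 in place of -0.14. KO late ileum was then at 0.031 to 0.31, and KO late against KO early ileum at -0.68 to -0.20. limma called 0 of 7 in each of these, where it called 5 genes higher and 1 lower, then 0, then 882 higher and 445 lower. In turn 2, 0 and 3 members had an unadjusted p under 0.05. Over all 19122 genes, 3161, 338 and 5471 were under it.

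Whether the difference of KO from WT irradiated mice was larger in colon was tested as an interaction. For KO early mice that difference also includes the time since chimerism. The difference between tissues was 0.90 (H2-Aa) to 1.47 (H2-DMb1) for KO early and 0.50 (H2-DMa) or more, with a median of 1.02, for KO late mice, and it was positive for all 7 members in both. limma called 0 of 7 for KO early (0.0408% of genes called) and 0 of 7 for KO late (0.189%). It gave 0 members an unadjusted p under 0.05, where 1935 and 1078 of 19588 genes were under it. edgeR called 0 members (7 genes higher and 2 lower for KO early, 30 and 9 for KO late mice). DESeq2 called 0 members too (50 and 45 genes, then 70 and 27). With the mouse as a block, 2 of 7 had an unadjusted p under 0.05 in each, as had 3482 (KO early) and 1982 (KO late) of 19588 genes. It was the same pair, Ciita and H2-DMb1. Ciita was at 1.40 ± 0.51 for KO early (adjusted p = 0.184, limma) and 1.40 ± 0.53 for KO late mice (adjusted p = 0.362, limma). Both WT groups as control together with the block, an alternative chosen after seeing the data, called H2-DMb1 for KO early mice (1.78 ± 0.49, adjusted p = 0.0492, limma), 1 of 7 members where 3.65% of all genes were called.

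The 7 members rose and fell together from library to library. Over the 12 colons, log2 values of the 21 pairs of members correlated at r = 0.80 to 0.99 (median 0.95), and over the 12 ilea at 0.81 to 0.98 (median 0.92). These values describe libraries that share mice, depth and the mixture of cells. The slope of each gene on Ciita, both as log2 values, was above 1 in colon for Cd74 (1.37), H2-Aa (1.37), H2-Eb1 (1.33), H2-DMb1 (1.26) and H2-Ab1 (1.13), and below it for H2-DMa (0.75). In ileum the slopes lay between 0.79 (H2-Aa) and 1.07 (Cd74). Normalised reads of H2-Aa per normalised read of Ciita were 1.35 in the colon of mouse 75, 4.96 in that of mouse 72 and 4.44 in that of KO early mouse 118, against 5.58 to 10.3 in the 12 ilea. Cd74 per Ciita was 3.03 in the colon of mouse 75, while mouse 72, at 13.5, lay inside the ileal range of 12.3 to 19.1.

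**Figure D4:**
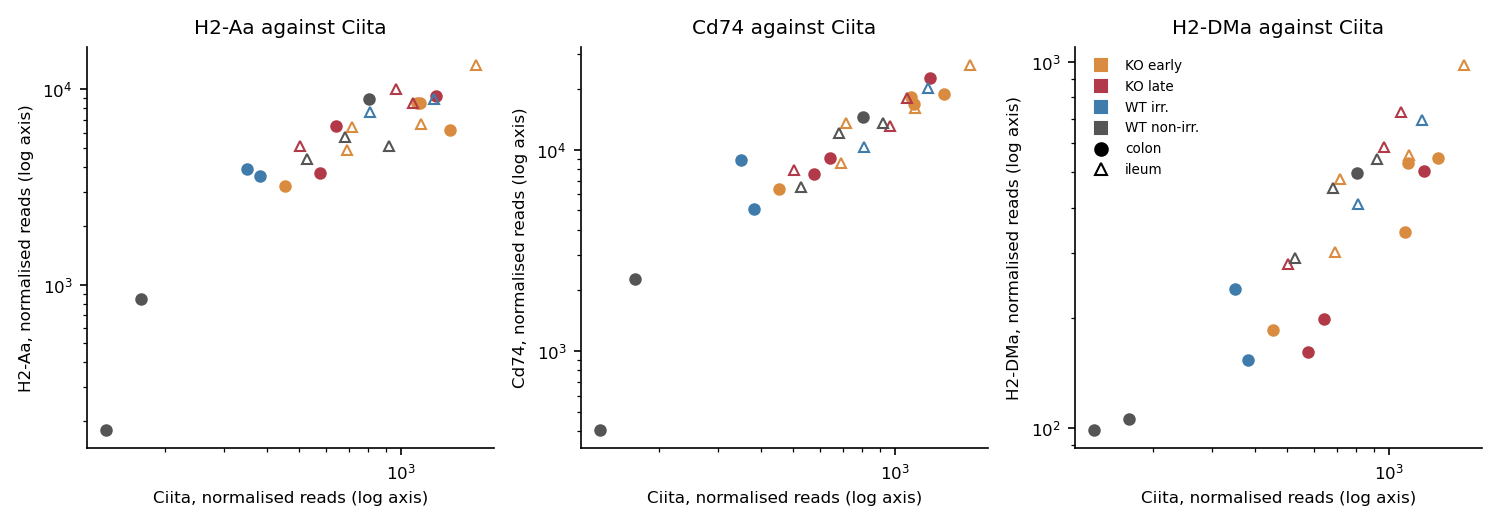
H2-Aa, Cd74 and H2-DMa against Ciita in the 24 libraries (normalised reads, both axes log), with colour by group, filled circles for colon and open triangles for ileum. Points rise together, and WT non-irradiated colons of mice 75 and 72 sit at the lower left, with H2-Aa at 180 and 841.

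The genes most like the members were found by the correlation of log2 values with the mean standardised level of the 7. Over all 24 libraries (12475 genes) Mir5107, which lies inside Cd74 and cannot be told from it, came first (r = 0.97), followed by Psmb9 (0.85), a subunit of the immunoproteasome, the transcription factor Irf8 (0.84), Aldh1l1 (0.82), Stat3 (0.82), Psmb8 (0.82), another immunoproteasome subunit, Pfkp (0.81) and Psme1 (0.81), a proteasome activator. Over the 12 colons the list after Mir5107 held Psmb9 (0.93), the peptide transporter Tap1 (0.91), Pla2g16 (0.90), the class I genes H2-Q7 and H2-Q9 (both 0.89, with identical r), Psmb8 (0.89) and Mir6381 (0.88), which lies inside Gbp2. Over the 12 ilea it held Ttc16 and Tor2a, which overlap (0.97 and 0.96), the class I gene H2-D1 (0.97), Cnnm4 (0.96), Mrm1 (0.96), B3gnt3 (0.96), Tap2 (0.96) and Cdh1 (0.96), the epithelial cadherin. Ptprc, the leukocyte gene that encodes CD45, correlated at -0.044 over all libraries, -0.30 in colon and 0.12 in ileum. Irf8, which is also in the dendritic cell list used below, was at 0.84, 0.82 and 0.94. The epithelial marker Epcam was at 0.58, 0.38 and 0.84. The part of the cell mixture in these correlations was not tested.

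Other genes of the pathway are given by the same comparison of tissues, and the difference between these lists and the members was not tested. In wild-type mice 9 of 14 interferon-gamma targets were higher in colon and 0 lower (median 1.39), where 21.6% of 19588 genes were called in either direction. Gbp5, an interferon-induced GTPase, was 2.31 ± 0.39 higher in colon (adjusted p = 7.84e-05, limma) and Iigp1, another GTPase, 2.71 ± 0.55 higher (adjusted p = 0.000716). Of 12 genes of endosomal processing and class II turnover, 4 were higher and 2 lower in colon: Ctss, the cathepsin that trims the invariant chain, was 1.41 ± 0.23 higher (adjusted p = 4.79e-05, limma), and Ifi30, a lysosomal thiol reductase, fell by 0.82 ± 0.27 (adjusted p = 0.0292). The 7 factors of the X and Y box complex had 0 calls by limma and 0 at an unadjusted p under 0.05 (median 0.080), with Rfx5 at 75 to 149 normalised reads over all libraries. Class I presentation genes had 0 calls of 10 (median -0.23, 0 at an unadjusted p under 0.05, limma), and interferon-gamma signalling genes 2 higher and 1 lower of 8, with Irf1 at 0.26 ± 0.35. Costimulation and checkpoint ligands had 2 higher of 8, which is near the share over all genes.

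In KO late colon 5 of 14 interferon-gamma targets were higher than in WT irradiated mice, beside 0 of the 7 class II members, where 1.03% of 19145 genes were called. The median of the targets was 2.57. All 14 had an unadjusted p under 0.05 by limma, as had 3150 of all genes tested. Ubd, a ubiquitin-like modifier, was at 3921 to 8099 normalised reads against 158 and 259, a log2 fold change of 4.82 ± 0.88 (adjusted p = 0.0184, limma). Gbp5 was at 500 to 867 against 77.4 and 93.7 (2.88 ± 0.54, adjusted p = 0.0215, limma). Cxcl9, a chemokine for T cells, and Iigp1 rose by 2.68 ± 0.54 (adjusted p = 0.0332) and 3.27 ± 0.68 (adjusted p = 0.0366), and the other call was Igtp (2.69 ± 0.56), which was named after its values were seen. Nlrc5, the regulator of class I genes and a relative of Ciita, was at 1648 to 2623 against 541 and 805. It lay above both controls, as did 16.7% of genes tested, but at 1.56 ± 0.48 (adjusted p = 0.175, limma) did not pass. Irf1, at 0.81 ± 0.51 (adjusted p = 0.369, limma), did not either. The difference between the targets and the class II genes was not tested.

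Cd83, which slows the degradation of class II molecules, fell in colon of both KO groups. It was at 38.2 to 46.4 in KO early and 35.5 to 48.3 in KO late mice, against 127 and 161 in WT irradiated and 138 to 261 in WT non-irradiated mice. Against WT irradiated mice it changed by -1.74 ± 0.31 in KO early (adjusted p = 0.0419, limma) and by -1.69 ± 0.33 in KO late mice (adjusted p = 0.0276, limma). It was the 1 call among the 12 genes of its list in each comparison, where 0.204% and 1.03% of all genes were called. Within the lists of other locus genes, X and Y box factors, costimulation ligands, interferon-gamma signalling and class I presentation, limma made 0 calls in either KO comparison in colon. For KO early mice these lists had 0, 0, 0, 2 and 5 genes at an unadjusted p under 0.05, and for KO late mice 0, 2, 3, 1 and 2. Over all 19145 genes, 1225 and 3150 had an unadjusted p under 0.05 by limma. Other class II genes of the locus were close to silent: H2-Oa had 0 to 8.1 normalised reads, H2-Ob 2.4 to 20.0 and H2-Eb2 7.9 to 43.4.

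Markers of leukocytes, which also make class II, were low in the sorted cells. The 12 pan-leukocyte genes summed to 886 to 1762 normalised reads per library in colon and 1161 to 2168 in ileum, and the 10 B cell genes to 492 to 1420 and 432 to 1252, against 1096 to 42691 and 16498 to 57588 for the 7 members. Among defining B cell genes Cd79a was at 1.9 to 13.8 and Cd79b at 0 to 20.9 (0 in 2 libraries). The 12 macrophage genes summed to 378 to 1155 in colon, with C1qa at 0 to 11.7 (0 in 2 libraries), and the 10 T cell genes to 224 to 838. The 10 dendritic cell genes summed to 647 to 2116 in colon and 1107 to 3469 in ileum, with Irf8 at 291 to 3248 over all libraries, while Clec9a was at 6.3 to 50.8 and Cd209a at 0.8 to 17.1. Between the tissues of wild-type mice, 3 of the 12 pan-leukocyte genes were lower in colon, near the 21.6% of all genes called in either direction. They were Cd52, with a log2 fold change of -0.97, Rac2 (-1.53) and Vav1 (-0.70). Irf8 (-1.66) was the 1 call among the 10 dendritic cell genes, of which 7 had positive log2 fold changes (median 0.34). Of the 11 macrophage genes tested, 1 was called lower and 7 were positive (median 0.12). limma called 0 of 10 B cell and 0 of 10 T cell genes. In these 2 lists 0 genes had an unadjusted p under 0.05. Of the 12 epithelial genes 2 were called lower in colon, Vil1 (-1.46) and Krt20 (-1.02), and 0 higher (median -0.24). Over all genes 21.6% were called in either direction. In KO late colon the pan-leukocyte sum was 1422 ± 370 against 1049 ± 52.9 in WT irradiated colon, with 0 of 12 genes called and 3 at an unadjusted p under 0.05 by limma. The B cell sum was 1214 ± 231 against 712 ± 311 and the macrophage sum 917 ± 206 against 528 ± 120. The dendritic cell sum was 1346 ± 668 against 697 ± 64.4 and the T cell sum 692 ± 195 against 376 ± 189. In these lists too, limma called 0 genes. In KO early colon the dendritic cell sum was 1456 ± 389 and the pan-leukocyte sum 1032 ± 128. In the colon of mouse 75, where class II was lowest, the pan-leukocyte sum was 1182, against 917 in mouse 72 and 1018 in mouse 73. Its dendritic cell sum was 671, against 647 and 813. With the mean of the pan-leukocyte genes as a covariate the member medians in colon were 1.07 for KO early and 1.04 for KO late mice, and 0 were called. Of all genes limma then called 17 higher and 1 lower for KO early, and 29 and 6 for KO late mice. The part of these cell types in the class II differences was not tested.

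**Figure D5:**
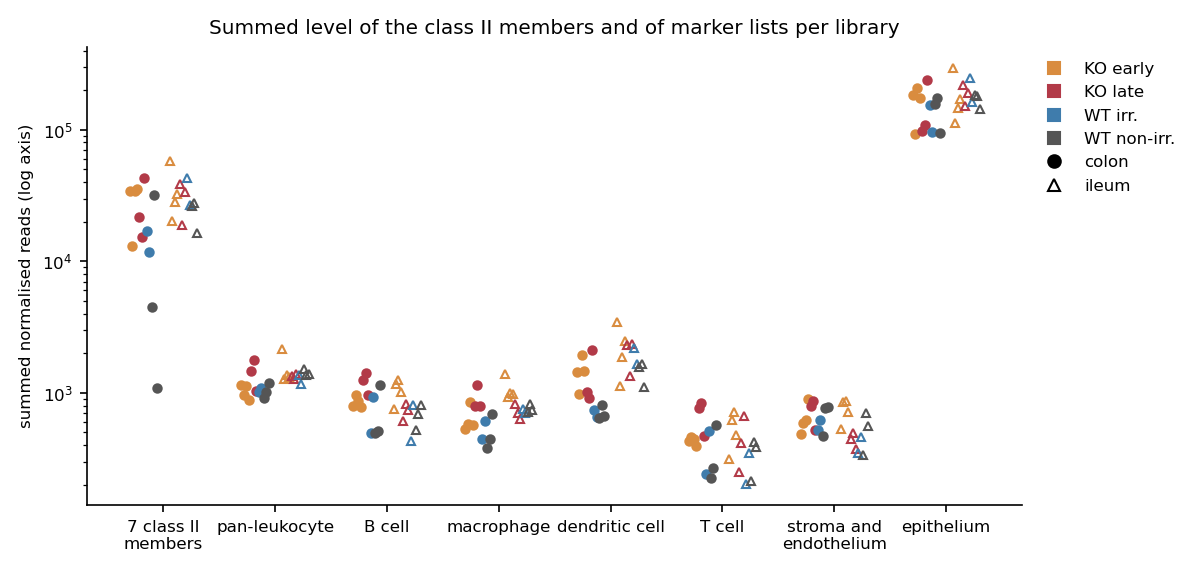
Summed normalised reads per library (log axis) of the 7 class II members and of 7 marker lists, with colour by group, filled circles for colon and open triangles for ileum. The members sum to 1096 to 42691 in colon, with the lowest point in WT non-irradiated mouse 75, while the pan-leukocyte list stays within 886 to 1762.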

How the data were processed

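Per the labels' protocols, 24 libraries were made from 100 ng each with a strand-specific kit for total RNA that removes ribosomal RNA, and read as single 50 bp ends, although the molecule label says polyA RNA. bcl2fastq, HISAT 0.1.6, HOMER and mm9 are named in the submitters' processing notes. Whether counting used strand, and which library ran on which of the lanes, are not given in the sources used here. The authors deposited 1 coverage signal per gene and library, reads divided by a size factor. Low values were whole multiples of 1 read (99.2 to 100% of values within 0.05 normalised reads), which gave the read totals. Median-of-ratios factors from those reads equalled the deposited ones (ratios 0.9998 to 1.0000).

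limma 3.58.1 (R 4.3.3) with a trend was run on log2(value + 1) for genes that reached 10 normalised reads in 2 or more libraries. The Benjamini-Hochberg adjustment covered all genes tested, and an adjusted p under 0.05 was a call. The design had set a count test in case of counts, and the form for normalised values was used. Comparisons within a tissue used its 12 libraries as 4 groups, and those between tissues all 24. edgeR 4.0.16 and DESeq2 1.42.0 on the recovered reads were alternatives. The script was tested on simulated data. The members and lists were chosen with earlier results of these data known. Named genes were the 7 members, 8 preset pathway genes and, per list and within-tissue comparison, at most 4 called genes with the smallest p. Any exception is given in the text, and a few single genes of the lists are not reported here, while counts and sums over lists include them. Genes most like the members had a mean of at least 50 normalised reads.

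Mouse numbers pair colon and ileum, since the labels give both to the same animal. The colon and ileum deviations of a mouse had correlations over genes between -0.36 and 0.56, with a median of 0.22 and with 5 of 10 mice above 0.1, without the 2 WT irradiated mice, whose deviations mirror each other. No library repeated another: over the 276 pairs the lowest chi-square per gene was 14.4. The replicates are separate mice by number. Exon lengths came from GENCODE M21 and promoters and overlaps from RefSeq, both on GRCm38, and no coordinate was moved between builds.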

Additional observations from a re-analysis of the deposited data

Results flagged for a closer look

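In colon of KO early mice, mouse 117 stood apart from the other 3 mice in 2 members. H2-Ab1 was at 1480.4 normalised reads in mouse 117, and the gap to the nearest mouse was 0.888 of the group's range. Cd74 was at 6364.8 in the same mouse, with a gap of 0.831 of the range. The limit for groups of 4 is 0.829, and 14 groups were examined (7 members in 2 tissues), where chance alone passes it in about 1 of 20. Mouse 117 was also lowest of its group in colon for the other 5 members. Without it, the KO early median in colon was 1.27 in place of 0.94, with 0 of 7 called by limma and 2 at an unadjusted p under 0.05. Of all 19111 genes tested then, 1101 were under it, and 30 were called higher and 4 lower.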

How the results depend on the processing

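The count of members called was within 1.5 times the reported one in 180 of 186 alternatives. In every comparison but colon against ileum in wild-type mice, the reported test called no member. Most of these 180 therefore set no calls beside no calls, and say little about stability. For colon against ileum in wild-type mice, where 5 were reported, edgeR called 2, leaving out 1 mouse gave 1 to 7, and the replicate block gave 7. The counts by edgeR and without mouse 59, 61 or 72 lay outside 1.5 times the reported one. The replicate block gave 1 for KO late colon against ileum, and the block with both WT controls gave 1 for the KO early difference between tissues; the block changed no other call. For WT irradiated against WT non-irradiated colon, edgeR gave -0.043 for H2-Ab1, -0.0045 for Ciita and -0.24 for H2-DMa, and DESeq2 gave -0.22 for H2-DMa. Leaving out 1 mouse there gave -0.079 to 2.32 for H2-Ab1, -0.012 to 1.28 for Ciita and -0.26 to 0.90 for H2-DMa. H2-DMa also turned when 1 mouse was left out of KO late against WT irradiated colon (-0.10 to 0.72) and of WT irradiated against WT non-irradiated ileum (-0.026 to 0.73). The cause was not tested. Of 476 member fold changes under alternatives, 446 kept direction and side of the threshold. The median effect of irradiation in colon minus that in ileum, 0.62, turned to -0.48 with edgeR, -0.52 with DESeq2 and -0.20 without mouse 75. With 2 irradiated mice, the 95% interval of KO early against WT irradiated colon reached 1.31 (Ciita) to 2.18 (H2-Aa) on the log2 scale to either side. Leaving out a WT irradiated mouse leaves 1, which is assumed to vary like the other groups.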
